A study of Zea mays with 6 samples.

Results

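Maize (Zea mays) seedlings labelled apl were compared with seedlings of their background line Zheng58, and 95 genes of the 44303 in the expression table were higher by a set margin in every apl library than in every Zheng58 library. These 95 genes were chosen by their measured values. In each, the lowest of the 3 apl values (TPM + 1) was at least 2 times the highest of the 3 Zheng58 values (TPM + 1), and the mean over the apl libraries was at least 3 TPM. TPM is a relative transcript abundance, scaled for transcript length and for the library's total. A block of 250 consecutive rows of the table in identifier order was left out, and 13 more genes there met the same 2 conditions. The rule used the contrast of apl with Zheng58 in all 6 libraries, so the difference between these groups is described here and supports nothing further.

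The 6 libraries were made from total RNA of second leaves, taken 10 days after germination in a greenhouse: 3 of genotype Zheng58 (wild type below) and 3 of genotype apl in the Zheng58 background. The labels name no other allele or agent, and do not say which locus apl is, how the mutant arose, or whether each library is a plant of its own. Spread between libraries, and so every p-value below, may thus be technical. The identifiers stand in the table without gene names, and 0 of the 44303 matched the RefSeq gene table used for names. Gene roles, coordinates and sequences are not given here, leaf cell type markers were not looked up, and members are referred to by their rank in mean apl TPM.

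Zheng58 is an inbred line used as a parent of commercial hybrids. Maize is a C4 grass, and its leaf splits carbon fixation between mesophyll cells, which capture CO2 first, and bundle sheath cells around the veins, which fix it again in the Calvin cycle. A whole leaf sample pools the RNA of these cells with that of epidermis, xylem and phloem. In such bulk samples more cells of one type and more RNA per cell cannot be told apart.

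One apl library stood apart from the others. Over the 20411 genes tested, those averaging 1 TPM or more, log2(TPM + 1) values of wild type libraries correlated with each other at 0.979 to 0.982 and those of apl replicates 1 and 3 at 0.952. For apl replicate 2 the values were 0.950 to 0.955 against wild type, and 0.885 to 0.900 against the other apl libraries. It thus lay nearer to wild type than to apl replicates 1 and 3, whose label it shares, and whether its label is right was not tested. Such correlations run across genes, and genes are not replicates. The rule asks this library to be on the apl side, and leaving it out moved the number of genes found more than leaving out any other library. Without apl replicate 2 the rule found 913 genes, of which the 95 were 10.4%. Without apl replicate 1 it found 110 genes, 93 of them members (84.5%), and without apl replicate 3 it found 112, 89 of them members (79.5%). With a library left out the ratio can only rise, so a member can be lost only through the apl mean. That most members stayed was thus fixed in advance. TPM carries no depth, so how deeply each library was read is unknown.

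The 95 genes together held a small part of the leaf transcriptome. Their TPM summed to 406, 373 and 377 in wild type replicates 1 to 3, and to 2720, 2242 and 2766 in apl replicates 1 to 3. As a share of each library's listed total, that was 0.0392% to 0.0427% in wild type and 0.237% to 0.297% in apl. The median member stood at 0.51, 0.42 and 0.5 TPM in the wild type libraries and at 9.77, 8.31 and 12.01 TPM in the apl libraries. On both measures apl replicate 2 was the lowest of the apl libraries. That it lay above wild type was fixed in advance by the rule. At least 10 TPM was reached by 8 to 11 members in a wild type library and by 42 to 51 in an apl library. Levels in apl ran from a mean of 3.10 to 222 TPM, with a median of 10.99 TPM. By this mean, 7 members reached 100 TPM, and 18 lay below that but at 20 TPM or more. Another 25 were between 10 and 20 TPM, 21 between 5 and 10 TPM, and 24 under 5 TPM.

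**Figure D1:**
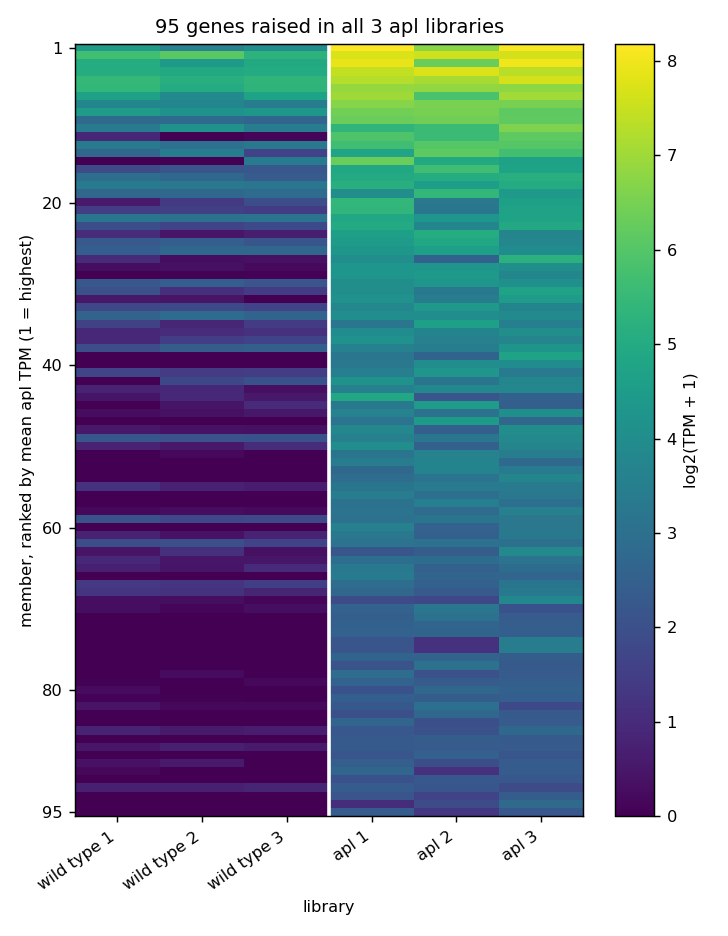
Level of each of the 95 members in the 6 libraries, as log2(TPM + 1) in colour, with members in rows ordered by mean apl TPM and the wild type libraries left of the white line. The apl columns are brighter than the wild type columns in every row, as the rule requires, and the lower rows are dark in wild type, where 25 members were listed at 0 TPM in all 3 libraries.

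The members differed in what they had in wild type. One class, 43 members, had at least 1 TPM in a wild type library, and their apl means ran from 6.11 to 222 TPM with a median of 24.3 TPM. A second class of 27 members was above 0 but under 1 TPM in wild type, with apl means of 3.48 to 59.1 TPM and a median of 6.96 TPM. The remaining 25 members stood at 0 in each wild type library, with apl means of 3.10 to 12.8 TPM and a median of 4.87 TPM. No single fold is given for these 25, since an exact 0 in TPM may be a failed estimate. They made up 26.3% of the members. Of the whole table, 33.2% of genes (14730) showed 0 TPM throughout wild type, but 12125 of these showed 0 TPM throughout apl as well. Those 12125 could not reach the apl mean of 3 TPM that the rule asks for. The sets behind these shares are thus unlike, and nothing is read from their difference. By the mirrored rule, 99 genes were lower in all 3 apl libraries, and every apl library listed 13 of those at 0.

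The member with the highest level in apl was Zm00001eb209570. It had 21.2, 11.3 and 15.1 TPM in wild type replicates 1 to 3 and 289, 104 and 272 TPM in apl replicates 1 to 3. The groups did not overlap, as the rule requires, and apl replicate 2 had less than the other apl libraries. Its means were 15.9 ± 5.02 TPM in wild type and 222 ± 102 TPM in apl (SD, n = 3 libraries in each). The log2 difference, apl minus wild type on the log2(TPM + 1) scale, was 3.63 ± 0.44 (SE), with an adjusted p of 0.0192 from limma over all 20411 tested genes. The call was lost without any 1 of 5 libraries and kept without apl replicate 2: the adjusted p was 0.0875, 0.124 and 0.123 without wild type replicates 1, 2 and 3, 0.0783 and 0.0750 without apl replicates 1 and 3, and 0.000925 without apl replicate 2.

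The largest difference was that of Zm00001eb307210, ranked 12 by level. It was nearly silent in wild type, at 0.88, 0 and 0.09 TPM, and had 59.3, 47.2 and 70.8 TPM in apl. The lowest apl value plus 1 was 25.6 times the highest wild type value plus 1, the widest gap among the members. Its log2 difference was 5.55 ± 0.28 (SE, limma adjusted p = 0.00127), where the pseudocount matters since wild type is near 0. It was 7.78 with a pseudocount of 0.1 TPM and 3.58 with 5 TPM. The 3 apl libraries lay within 1.49-fold of each other (TPM + 1).

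Members at the next levels differed in how steady they were over the apl libraries. Rank 2 was steady, with 51.1, 66.3 and 37.7 TPM in wild type and 209, 192 and 200.1 TPM in apl. Its log2 difference was 1.97 ± 0.21 (SE, limma adjusted p = 0.0116), and here the wild type libraries were the more uneven group. Rank 6 was also steady, at 41.8, 31.8 and 38.9 TPM in wild type and 117, 115 and 109 TPM in apl. Rank 8 had 12.5, 12.6 and 9.81 TPM in wild type and 103, 92.2 and 90.3 TPM in apl. In ranks 6 and 8 each apl library was close to the others, and every wild type library was far below them. Rank 10 had 6.12, 5.93 and 5.35 TPM in wild type and 77.6, 83.3 and 71.9 TPM in apl. With a log2 difference of 3.53 ± 0.11 (SE), this gene had the smallest limma adjusted p among the members, 0.00019.

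Ranks 3 and 7 were uneven in the same way as the top member. Rank 3 had 32.7, 19.95 and 30.3 TPM in wild type and 241, 77.8 and 254 TPM in apl. Rank 7 had 24.9, 13.7 and 25.6 TPM in wild type and 127, 55.9 and 131.5 TPM in apl. In both genes the lowest apl library was replicate 2 and the lowest wild type library was also replicate 2, and neither passed the test over all 6 libraries (limma adjusted p of 0.0747 and 0.0709). Rank 4 was arranged the other way, with 32.1, 30.3 and 31.8 TPM in wild type and 172, 214 and 159 TPM in apl, so that apl replicate 2 was the highest library. Rank 5 had 42.8, 34.4 and 39.4 TPM in wild type and 153, 137 and 202 TPM in apl, with apl replicate 3 highest.

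**Figure D2:**
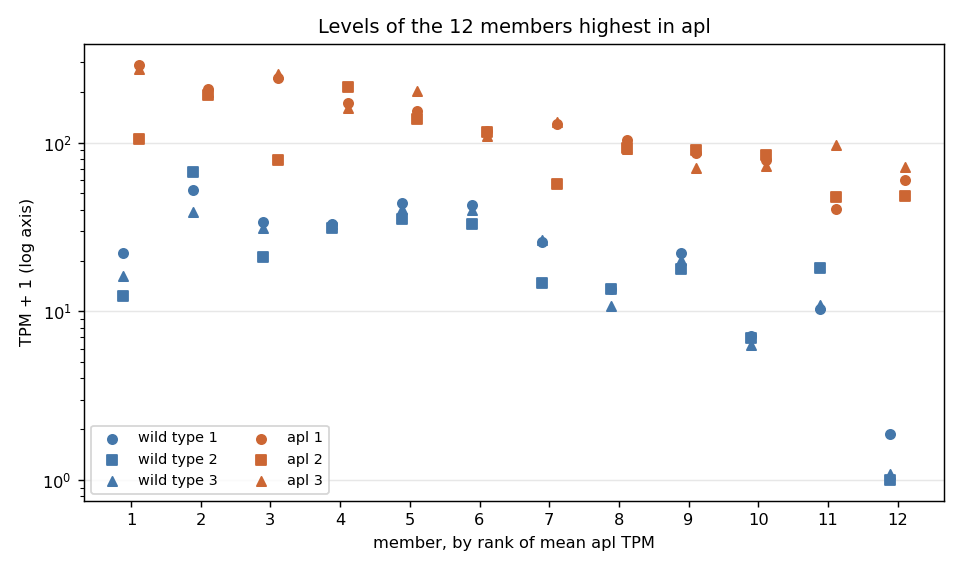
TPM + 1 on a log axis for the 12 members with the highest mean apl level, each point 1 library (blue wild type, orange apl, marker shape the replicate number). The groups are apart in all 12, as the rule requires. In ranks 1, 3 and 7, apl replicate 2 (orange squares) lies below the other apl libraries by a wide margin. It is the highest apl library in ranks 4, 9 and 10.

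The spread between wild type libraries can be read only in members that were expressed there. In the 41 members with at least 1 TPM in a wild type library and none at 0, the highest wild type TPM was a median of 1.33 times the lowest. The rule itself selects against a single high wild type value. The most uneven member in wild type, by TPM + 1, was rank 15, which had 0, 0 and 9.02 TPM in wild type and 78.5, 30.1 and 24.7 TPM in apl. There wild type replicate 3 alone showed the transcript, and the limma adjusted p was 0.119. In 12 members 1 or 2 wild type libraries were listed at 0 while another was above 0.

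Among the 25 genes listed at 0 in wild type, the highest apl mean was that of rank 39, with 8.27, 5.19 and 24.97 TPM in apl replicates 1 to 3. Rank 40 had 8.64, 15.0 and 14.8 TPM in the apl libraries. Rank 47 had 7.62, 21.2 and 5.49 TPM. Each of these 3 genes was thus present in all apl libraries, but a different library was low in each. Over the 25 genes the lowest value in any apl library was 1.08 TPM and the highest 24.97 TPM.

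Ranks 74 and 75, both listed at 0 in wild type, had the same values in all 6 libraries: 3.5, 1.25 and 9.87 TPM in apl replicates 1 to 3. They are 2 identifiers far apart in the table, in rows 40549 and 43891. The estimates of genes that share reads are uncertain, and these 2 values may not be independent, so that they count as 2 members by identifier only.

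The log2 differences of the 95 members ran from 1.19 to 5.55, with a median of 2.40 and quartiles of 2.08 and 2.97, beside a median of 0.04 over all tested genes. The median of the members was 3.76 with a pseudocount of 0.1 TPM and 1.36 with 5 TPM. It was 2.38 over the 70 members that were above 0 in a wild type library. For the other 25 the pseudocount sets the value, so counts are given for the 70. At least 2 log2 units were reached by 52 of them, 3 by 14 and 4 by 3. Measured as the gap between the closest libraries of the groups, 34 of the 70 had a ratio of at least 3, 14 of at least 5 and 4 of at least 10. The members just inside the limit of 2 had ratios of 2.01, 2.017 and 2.018, and the genes just outside it 1.95, 1.98 and 1.99. The gene with the ratio of 1.99 had 14.2, 19.96 and 18.9 TPM in wild type and 40.8, 50.4 and 42.4 TPM in apl. Of the genes past the ratio, 12 had an apl mean under 3 TPM and were not taken. The nearest of these had 2.89 TPM, and the member nearest to the limit had 3.10 TPM.

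In the linear model over all 6 libraries, 72 of the 95 members passed an adjusted p of 0.05 (limma, Benjamini-Hochberg over the 20411 tested genes), all higher in apl. Over all tested genes, 0.661% passed in this direction. In 12.7% of tested genes the 3 apl values lay above the 3 wild type values, which the rule makes true of every member. The rule used this contrast, so nothing is read from the 72. All members passed the filter on low values by construction, since 3 TPM in apl alone gives a mean above 1 TPM. With a filter at a mean of 5 TPM, 51 members were tested and 34 passed, where 0.658% of all tested genes passed upward. Leaving out wild type replicate 1, 2 or 3 left 40, 39 or 41 members past the threshold, beside 0.239%, 0.234% and 0.239% of tested genes. Leaving out apl replicate 1 left 49 of 95 (beside 0.33%), and leaving out apl replicate 3 left 49 of the 92 still tested (beside 0.352%). Without apl replicate 2 all 95 passed, where 20.2% of 20511 tested genes passed in this direction.

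The 23 members that did not pass had an adjusted p of 0.0503 to 0.156 in the same limma model. The spread between apl libraries enters that p directly, so passing members are not compared with the others for their spread. The member most uneven in apl was rank 44, with 0.38, 0.89 and 0.48 TPM in wild type and 28.3, 3.45 and 4.83 TPM in apl, where apl replicate 1 was high. Rank 27 had 0.97, 0.23 and 0.29 TPM in wild type and 15.1, 4.85 and 36.4 TPM in apl, where all 3 apl libraries differed. Rank 21 had 1.83, 1.94 and 1.69 TPM in wild type and 40.9, 8.35 and 25.03 TPM in apl. Its wild type values were nearly equal, and its apl values were far apart but all above them.

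At the other end, 21 members had apl libraries within 1.2-fold of each other (TPM + 1). Their apl means ran from 3.49 to 200.1 TPM, and every wild type library listed 5 of them at 0. The most even was rank 81, with 0.05, 0.04 and 0.02 TPM in wild type and 4.4, 4.36 and 4.47 TPM in apl. Rank 87 had 0.4, 0.63 and 0.5 TPM in wild type and 3.97, 4.11 and 4.06 TPM in apl. Evenness in apl on this scale was thus found at low as well as at high levels, though the added 1 draws low values together. Within 2-fold were 61 members and within 3-fold 81. The shares of tested genes within these limits are not given here, so nothing is read from these counts. Over all 95 the median spread was 1.65-fold in apl, against 1.46-fold over all tested genes. The sets are unlike, since members must average 3 TPM in apl and tested genes 1 TPM over all 6 libraries. Nothing is read from this difference.

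Replicate 2 of apl, which stood apart over the whole transcriptome, was placed among the members as follows. Its log2(TPM + 1) minus the mean of apl replicates 1 and 3 had a median of -0.09 over the members, with quartiles of -0.63 and 0.33. Over all tested genes the median was -0.10, with quartiles of -0.55 and 0.24. The sign of these medians turned with the scaling: after median-of-ratios rescaling they were 0.045 for the members and 0.015 for all tested genes, and after quantile normalization 0.097 and 0.11. This library was the lowest apl library in 44 members (46.3%) and the highest in 36 (37.9%), beside 48.3% and 33.6% of tested genes. By either measure the members were close to the tested genes as a whole, but the sets are unlike. The rule limits how low this library can be in a member, while the tested genes include genes lowered in apl. Nothing is therefore read from the closeness. On a scale from the wild type mean (0) to the mean of apl replicates 1 and 3 (1), its median place was 0.95, and its quartiles were 0.71 and 1.10. This library was closer to wild type in 7 members and beyond the other apl libraries' mean in 43, and the rule itself keeps it away from the wild type end.

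A difference of at least 1 log2 unit between apl replicate 2 and the mean of the others was seen in 21 members. In 17 it was lower (17.9%, beside 13.6% of tested genes), and in 4 it was higher (4.21%, beside 4.03%). Rank 20 was among the 17, with 0.51, 1.63 and 2.9 TPM in wild type and 41.9, 8.73 and 23.9 TPM in apl. Rank 45 was among the 4, with 0, 0.39 and 0.99 TPM in wild type and 8.99, 21.9 and 4.56 TPM in apl. Replicates 1 and 3 of apl were within 1 log2 unit of each other in 85 members. Across the 95 members, log2(TPM + 1) correlated at 0.913 between apl replicates 1 and 3, 0.863 between 1 and 2, and 0.826 between 2 and 3. Between wild type libraries these values were 0.944 to 0.969. There 25 members were at 0 in all 3 libraries and 27 more were under 1 TPM, while the rule sets a lowest mean in apl. The wild type and apl values are thus unlike, and nothing is read from their difference.

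**Figure D3:**
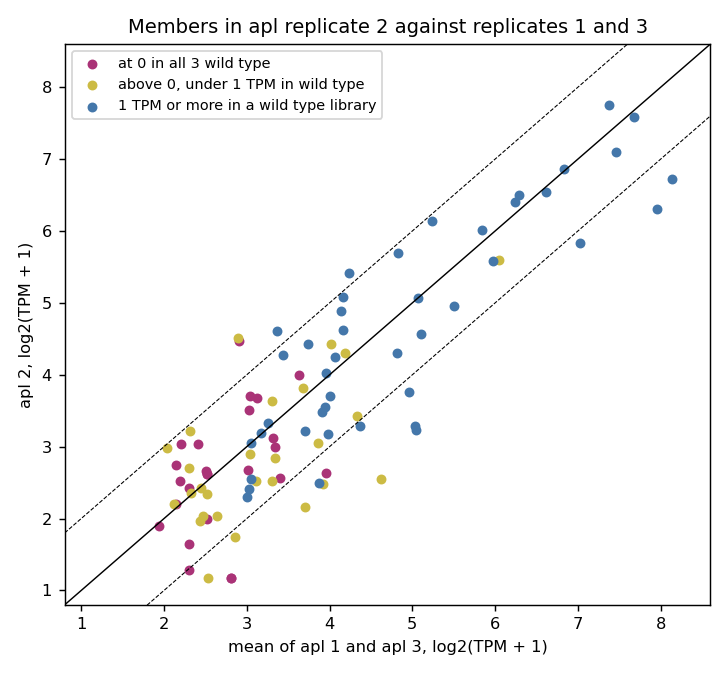
Level in apl replicate 2 (vertical) against the mean of apl replicates 1 and 3 (horizontal), both as log2(TPM + 1), for the 95 members coloured by their wild type level. The solid line marks equality and the dashed lines a difference of 1 log2 unit, below which 17 members lie and above which 4 lie.

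Place in the identifier order was not used by the rule, apart from the rows left out. The identifiers are numbered in steps of 10 with no gap, so that a row is a place in the numbering. It is not a coordinate, and whether the numbering follows the chromosomes was not checked. Of the 95 members, 38 had another member within 25 rows, 26 within 10 rows and 58 within 100 rows. These 38 formed 15 runs, 6 of them with 3 or 4 members. In 178 windows of 250 rows, members fell into 55, and 5 windows with at least 4 members held 27 of the 95. The rows left out by the rule make up a whole window, which holds no member though 13 genes there met the same conditions. Among the other windows the fullest, rows 6251 to 6500, held 7 members among 142 tested genes (4.93%). The next, rows 24751 to 25000, held 6 among 116 (5.17%). Over the whole table the members were 0.465% of the tested genes. These windows were picked for their members, and how many members would lie so near each other by chance was not tested.

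The tightest run was 3 members in consecutive rows, 6287 to 6289, which ranked 33, 4 and 16 by level. Rank 33 had 2.31, 2.59 and 2.15 TPM in wild type and 12.7, 20.4 and 12.01 TPM in apl. Rank 16 had 2.74, 3.46 and 3.65 TPM in wild type and 28.6, 50.5 and 26.1 TPM in apl. All 3 genes, with rank 4 given above, had their highest value in apl replicate 2 and nearly equal values in apl replicates 1 and 3. The 3 passed the threshold, with log2 differences of 2.23, 2.48 and 3.02.

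Other neighbours were alike in part. Rows 6496 and 6497 held rank 9, with 21.3, 16.9 and 19.1 TPM in wild type and 85.5, 89.3 and 69.4 TPM in apl, and rank 59, with 3.17, 2.45 and 2.47 TPM in wild type and 7.54, 8.14 and 8.57 TPM in apl. Rows 17145 and 17146 held ranks 54 and 51, at or near 0 in wild type, with 6.52, 7.73 and 12.3 TPM and with 7.84, 11.4 and 10.1 TPM in apl. Rows 40548 and 40549 held ranks 39 and 74, both lowest in apl replicate 2 and highest in apl replicate 3. The 5 pairs in consecutive rows include 2 that share row 6288. In 4 of the 5, apl replicate 2 was on the same side of the mean of apl replicates 1 and 3 in both genes, though in rank 59 by only 0.016 log2 units, between the 2 libraries. How often other pairs of genes agree in this was not tested, and nothing is read from the 4.

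The genes next to the members were looked at as well. Of the 178 other genes in the next row on either side, 75 were tested, with a median log2 difference of 0.11. The limma threshold was passed by 2 of the 75 upward (2.67%, beside the 0.661% of all tested genes) and by 4 downward (5.33%, beside 0.745%). The 0.661% includes members that passed, while the neighbours are not members, so these sets are unlike. The difference from these shares was not tested. Genes of the mirrored rule also lay close by: 17 members had a lowered gene within 25 rows, and 5 had one in the next row. In rows 24819 to 24831, 3 members stood among 3 lowered genes, and in rows 33599 to 33609, 3 members stood among 2. The members and the lowered genes thus shared some stretches of the numbering. The share of all genes that lie so near a lowered gene is not given here. Whether members lie nearer to them than other genes was not tested.

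**Figure D4:**
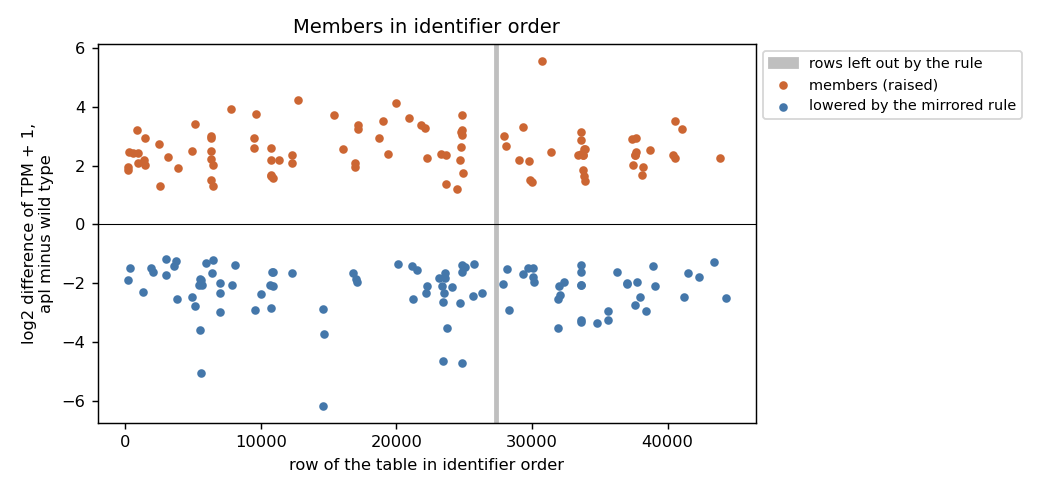
Log2 difference of TPM + 1, apl minus wild type, by row of the table in identifier order, for the 95 members (orange) and the 99 genes of the mirrored rule (blue), with the rows left out in grey. Members are spread over the whole order with small groups, such as the 7 in rows 6251 to 6500, and lowered genes occur along the same range.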

How the data were processed

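The values were deposited by the authors as 1 table of TPM, with 1 column per library and 2 decimals. Trimmomatic 0.36, HISAT2, RSEM and DESeq2 are named in the submitters' processing notes, with no role or order. For the genome build and annotation: not given in the sources used here. Depth is unknown, so no counting interval or floor is given.

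Members were found by the stated rule, and these members, the rule and the tests were chosen with earlier results of these data known. Values were transformed as log2(TPM + 1). The 20411 genes averaging 1 TPM or more over the 6 libraries entered a limma 3.58.1 model (R 4.3.3) of genotype alone, with a mean-variance trend. Two-sided p-values were corrected by Benjamini-Hochberg across all of these genes, and the threshold was 0.05. A fold change on this scale understates that of genes at low TPM. Named by identifier were the member with the largest log2 difference and the one with the highest apl mean. Single members described by rank were chosen after their values were seen. Of 44303 identifiers, 0 matched among 49888 RefSeq genes (Zm-B73-REFERENCE-NAM-5.0), so the lists of named genes and cell type markers were not used. The labels give no batch, and no analysis within batches was made. Shared replicate numbers are not stated to pair libraries.

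Alternatives were other pseudocounts, filters, scalings and limits of the rule, no trend, a replicate block and leaving out each library.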

Additional observations from a re-analysis of the deposited data

How the results depend on the processing

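The number of genes meeting the rule was 197 at a ratio of 1.5, 55 at a ratio of 3, 50 at an apl mean of at least 10 TPM and 40 at a pseudocount of 5. It stayed within 1.5 times of 95 at an apl mean of 1 TPM (107), a pseudocount of 0.1 (121), median-of-ratios rescaling (91) and with the left-out rows included (108). Leaving out a library, which can only loosen the ratio, gave 104 to 913 genes, the highest without apl replicate 2. Members past the limma threshold numbered 64 to 75 under pseudocounts of 0.1 and 5, no filter, both rescalings and no trend, among 118 to 145 genes higher in the whole table. A filter at 5 TPM kept 51 members in the test, and 34 passed, among 89 genes. Leaving out a library gave 39 to 95, among 48 to 4141 genes, where 39 is the value without wild type replicate 2. Under a replicate block 13 members passed, of 14 genes higher in the whole table. The libraries share only a number: same-numbered libraries' deviations from their group's mean correlated at -0.04, 0.05 and -0.02, and 2 of the 6 libraries correlated best with their own number. The median log2 difference was 3.76 at a pseudocount of 0.1, 1.36 at 5 and 2.29 after quantile normalization, and 2.38 to 2.51 with a library left out. The median of apl replicate 2 against replicates 1 and 3 turned from -0.09 to 0.045 after median-of-ratios rescaling and to 0.097 after quantile normalization. Zm00001eb307210 passed under all 14 alternatives (limma adjusted p from 0.000732 to 0.0223). Zm00001eb209570 passed under 9 of 14, and its log2 difference was 3.37 to 4.10 with a library left out. Members with another nearby numbered 26 within 10 rows and 58 within 100 rows, against 38 within 25 rows. With no depth given, counting error at low TPM is unmeasured.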
